A study of Homo sapiens with 102 samples.

Results

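CenU position codes T111 to T128 cover the second CENP-A rich domain of HAC 1-20 and its CENP-A poor end, T125 to T128. HAC 1-20 is a human artificial chromosome (HAC) kept in the fibrosarcoma cell line HT1080. The values below show CENP-A enrichment in only part of these codes. The domain was chosen by its CENP-A density in untreated cells, so the untreated CENP-A values below are a description and carry no test. Of the 18 codes in this range, 17 had a median of at least 0.1% of the CenU reads over the 49 libraries of HAC 1-20 and were described. They belong to 61 CenU codes that this HAC carried by the same rule, out of all CenU and NCU codes in the count files. T127 was left out with a median of 0.0175%. The lowest member was T128 at 1.06% and the highest T120 at 2.38%. Over all CenU codes the nearest values to the minimum were T088 above it, at 0.103%, and T072 below it, at 0.0605%.

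The HAC was assembled by cells from synthetic alphoid repeat units, each built with a short sequence of its own, the position code. A CenU unit holds CENP-B boxes, to which the centromere protein CENP-B binds, and tetracycline operators. An NCU unit has mutated boxes and lactose operators instead. Chromatin of 1 clonal HAC line was precipitated with antibodies to CENP-A, H3K4me2, H3K14ac, H4K8ac, H4K20me1, H3K36me2 and H3K9me3, and the codes in the recovered DNA were amplified together and counted. The cells were untreated, blocked with thymidine, arrested with colcemid or released from colcemid for 3 h, or had received a control siRNA (siControl), an siRNA to KAT7 (siKAT7) or one to HJURP (siHJURP). All groups share the HT1080 genotype and the same HAC. Each antibody and treatment had 1 library, made from the pooled DNA of 3 ChIP reactions, so there are no replicates and conditions are compared by values with counting intervals. Those 95% intervals cover counting error only, since the PCR had no molecular identifiers and reads can be copies of 1 molecule. How far either siRNA lowered its target cannot be read from these libraries.

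CENP-A replaces histone H3 in the nucleosomes of active centromeres and recruits the proteins on which the kinetochore is built. HJURP is the chaperone that places new CENP-A on chromatin after mitosis, and KAT7 is a histone acetyltransferase. H4K20me1 is known from CENP-A nucleosomes, H3K9me3 marks heterochromatin, H3K36me2 lies over transcribed and intergenic euchromatin, and H3K4me2, H3K14ac and H4K8ac are marks of open chromatin. CENP-B binding to alphoid DNA favours both centromere and heterochromatin formation.

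The codes are printed because they name the units whose values follow, and because their order bears on how the end of the domain is read. They come from the list of codes the study designed, and are matched to the counted codes by number. Each has 23 bases, written 5′ to 3′. Capitals mark the bases that the designed list sets apart, and lower case marks the frame that all CenU codes share. The first capital, A, is the same in every code printed here, so only the later capitals vary among them. The first set is the run T111 to T116.

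T111: ggggAaaaTGcccCCtttCCggg
T112: ggggAaaaTGcccCGtttCGggg
T113: ggggAaaaTCcccAAtttAAggg
T114: ggggAaaaTCcccATtttATggg
T115: ggggAaaaTCcccAGtttAGggg
T116: ggggAaaaTCcccACtttACggg

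The second set is the run T121 to T123, followed by T124 and the CENP-A poor end, with T127, which was left out.

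T121: ggggAaaaTCcccGAtttGAggg
T122: ggggAaaaTCcccGTtttGTggg
T123: ggggAaaaTCcccGGtttGGggg
T124: ggggAaaaTCcccGCtttGCggg
T125: ggggAaaaTCcccCAtttCAggg
T126: ggggAaaaTCcccCTtttCTggg
T127: ggggAaaaTCcccCCtttCCggg
T128: ggggAaaaTCcccCGtttCGggg

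The code names follow a counting scheme in which the last base pairs step through A, T, G and C. 6 CenU codes depart from it, and 4 of these are members. T111 and T112 hold each other's sequence in that scheme. T127 and T128 likewise hold each other's sequence. By sequence, the carried code T128 thus follows T126 directly, and the code that was left out is the last of the scheme. The other exchanged pair is T001, with the sequence of place 72, and T072, with that of place 1. T001 was therefore added to T070 to T083 as an alternative below. Whether the units lie in the HAC in the order of their codes was not analysed here, and synthetic units have no position in the human genome.

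Any CenU code has another that differs from it by 1 base. T127 differs by 1 base from the carried codes T080, T096 and T111, and whether its few reads came from such codes was not tested. The GC content of the 18 codes ran from 47.8% to 65.2%. Pearson's r of GC content with the log2 median read share was −0.06 across the 61 carried codes and −0.41 across the 17 members, given as a description because codes share libraries and primers.

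A HAC 1-20 library held 4611 to 918309 matched reads (median 381083), of which 1462 to 298251 fell on CenU codes. The shallowest library was CENP-A in siKAT7 cells, with 3960 CenU reads, and the library with 1462 CenU reads was H3K9me3 in untreated cells. Reads on CenU codes that this HAC did not carry were 0.192% to 7.3% of CenU reads in treated and 1.35% to 16.4% in untreated libraries. The H3K14ac library of released cells stood apart. The SD over the carried codes of its log2 share against the median of its antibody was 2.73, where the median library had 0.454. H3K14ac results are therefore also given without it.

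CENP-A was spread unevenly over the 17 codes. Codes T111 to T123 together took 33.2% (95% interval 32.8 to 33.7) of the CenU CENP-A reads in untreated cells. Over the 7 conditions their share was 24.4% to 33.8%, with a median of 32.1%. The 6 codes T111 to T116 held the largest part of this, with a lowest share of 12.3%, a median of 15.2% and a highest of 17.1%. The 4 codes T117 to T120 held 7.68% to 10.7%, with a median of 9.21%. The 3 codes T125, T126 and T128 held 0.808% to 1.85%, with a median of 1.37%. In no condition did the end of the domain reach the share of T117 to T120.

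A read share grows with the copy number of a code as well as with its ChIP recovery, and the 2 cannot be told apart from 1 library. CENP-A was therefore set against the marks. The CENP-A level of a code is log2 of its CENP-A reads + 0.5 minus the mean of the same value over the 6 marks, with the median of the 61 carried codes set to 0. For 1 mark the level is taken against the other 5 marks. The CENP-A level contains each mark with a negative sign, so the levels of CENP-A and of a mark are not independent of each other.

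The level is given for 4 stretches of codes. They were set beforehand, with earlier results of these data known, and not found by this level. In untreated cells the median CENP-A level was 1.07 for T111 to T116, 0.23 for T117 to T120, 0.92 for T121 to T123 and −2.60 for T125 to T128, and T124 alone stood at −0.54. Over the 7 conditions T111 to T116 ranged from 0.45 in siHJURP to 1.31 in colcemid cells. T121 to T123 ranged from −0.04 in siKAT7 to 1.04 in colcemid cells. T117 to T120 stayed between −0.22 and 0.23, a range that T121 to T123 overlapped. Against H3K4me2, H3K14ac, H4K8ac and H4K20me1 alone, T121 to T123 and T117 to T120 had 0.33 and 0.21 in untreated cells. In colcemid cells they had 1.14 and 0.13. The median of the end ranged from −2.81 in siKAT7 to −1.62 in thymidine cells, and did not overlap the medians of any other stretch. The end was chosen as CENP-A poor with results of these data known, so this separation is only a description. T125 alone ran from −2.81 to −0.74 and overlapped T124, at −1.45 to −0.53.

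The order of the single codes by median CENP-A level began with T114 at 1.22, T115 at 1.20 and T111 at 1.13. T112 followed at 0.72, T116 at 0.61, T121 at 0.48 and T113 at 0.31. The ranges of these neighbours overlapped. T114 ran from 0.42 to 1.85 and T113 from 0 to 0.74. T117 to T120 lay between −0.24 and 0.05, T124 at −0.70, T125 at −1.52, T126 at −2.58 and T128 at −3.04. T124, T125, T126 and T128 were below 0 in all 7 conditions, and their medians fell from code to code. T126 (−2.94 to −1.62) and T128 (−4.71 to −2.60) overlapped in range.

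A test was made on the 42 libraries of the 6 treated conditions, since the domain is defined by CENP-A density in untreated cells. The minimum read share of a member did use these libraries, and results of them were known when the codes were chosen, so the test is not independent of the choice. An edgeR quasi-likelihood fit with antibody and condition as terms compared 1 antibody with the mean of the marks, the conditions serving as the repeats of an antibody. P-values were adjusted by Benjamini-Hochberg over all 61 codes and 7 antibodies together, and a code was called at an adjusted p under 0.05. Because untreated and treated cells carry the same HAC, the fit describes other libraries of this HAC and no other clone.

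In CENP-A 8 of the 17 members were called higher, where 34.4% of all carried codes were, and 4 were called lower, where 29.5% were. The codes called higher were T111 to T116, T121 and T122. Outside the members, T084 and all carried codes of T070 to T083, the first CENP-A domain, except T073 were called higher.
T114 took 1.94% (siKAT7 cells), a median of 2.18% and 2.95% (colcemid cells) of CenU CENP-A reads, and its log2 value over the marks was 1.30 (SE 0.32, edgeR adjusted p = 0.0014). T115 took 2.02% to 3.37%, with a log2 value of 1.26 (SE 0.32, edgeR adjusted p = 0.002). T113 was higher by the smallest amount, 0.49 (SE 0.17, edgeR adjusted p = 0.0219). T123, although chosen as part of the second run, was not called, with 0.37 (SE 0.22, edgeR adjusted p = 0.226).
The 4 codes T117 to T120 between the runs had values of 0.14 for T117, 0.15 for T118, 0.28 for T119 and 0.03 for T120, and none was called. T119 had the lowest of their adjusted p-values (edgeR, 0.111).

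The codes called lower in CENP-A were T124, T125, T126 and T128. T128 took 0.0505% (2 reads, siKAT7 cells), a median of 0.14% and 0.203% (siHJURP cells) of CenU CENP-A reads. Its log2 value over the marks was −2.93 (SE 0.33, edgeR adjusted p = 5.47e-09). T126 took 0.234% to 0.505%, with −2.17 (SE 0.32, edgeR adjusted p = 1.07e-06). T125 took 0.253% to 1.33%, with −1.31 (SE 0.25, edgeR adjusted p = 0.000126). T124, the code between the second run and the end, was closest to the threshold at −0.59 (SE 0.23, edgeR adjusted p = 0.0442). T127 stayed at 0.00676% to 0.0518% of CENP-A reads, so its few reads gave no domain value.
The number of members called higher fell from 8 to 5 without colcemid or without siControl cells, which left out T111 and T113 in both cases, T122 in the first and T121 in the second.

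H3K9me3 ran the other way along the same codes. The 2 sets of calls are not independent, since the CENP-A value is taken against a mean that includes H3K9me3. No alternative fit left H3K9me3 out of that mean. Against the 4 marks other than H3K9me3 and H3K36me2, the untreated CENP-A level was 0.51 in place of 1.07 for T111 to T116. For T125 to T128 it was −1.96 in place of −2.60. It was called lower in 8 of the 17 members, where 29.5% of the carried codes were, and higher in 4, where again 29.5% were. The 8 lower codes were T111, T112, T121, T122, T123 and T114 to T116, and the 4 higher codes were T124, T125, T126 and T128.
T116 took 0.252% (siControl cells), a median of 0.568% and 0.676% (released cells) of CenU H3K9me3 reads, and its log2 value against the other marks was −1.80 (SE 0.27, edgeR adjusted p = 1.65e-06). T115 took 0.137% (2 reads, untreated cells) to 0.613%, with −1.70 (SE 0.40, edgeR adjusted p = 0.00111). T126 took 3.35%, a median of 3.65% and 4.16%, with 1.27 (SE 0.24, edgeR adjusted p = 8.88e-05). The lowest share of T126 was thus above the highest share of T116.

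T113 departed from its neighbours. It took 0.889% to 1.99% of CenU H3K9me3 reads, with a median of 1.9%, while the medians of T112 and T114 beside it were 0.451% and 0.467%. Its log2 value was −0.02 (SE 0.18, edgeR adjusted p = 0.94). T113 was thus called higher in CENP-A and not called in H3K9me3.
T117 to T120 took medians of 1.86% to 2.44% of H3K9me3 reads and none was called. The closest was T120 at −0.34 (SE 0.14, edgeR adjusted p = 0.0525). They combined median read shares of 1.9% to 2.38% over all 49 libraries with CENP-A and H3K9me3 levels near those of the median carried code. T113 had such a share of 1.93%, beside 1.44% for T112 and 1.21% for T114, while T116, called lower in H3K9me3, had 1.87%. The paper reports that only some codes of this HAC are single-copy. A repeated code gives the mean over its copies, and setting antibodies against each other does not separate them. Copies were not counted here, so these values cannot be placed at 1 site.

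H4K20me1 was called higher in 5 of the 17 members, T111, T112 and T114 to T116, where 29.5% of the carried codes were. The share of members was thus near that of all carried codes. In T070 to T083 all carried codes except T070 and T079 were called higher. H4K20me1 was called lower in 3 members, T125, T126 and T128, where 18% of the carried codes were. T114 had the largest value, 1.40 (SE 0.32, edgeR adjusted p = 0.000691), on 1.44% to 2.54% of CenU H4K20me1 reads.
T128 took 0.073% (released cells), a median of 0.199% and 0.447% (untreated cells), with a log2 value of −3.12 (SE 0.33, edgeR adjusted p = 2.48e-09). The second run was not called in H4K20me1, with 0.63 (SE 0.31, edgeR adjusted p = 0.121) for T121, −0.08 for T122 and −0.07 for T123. The runs thus both had CENP-A calls, and only the first had H4K20me1 calls. This contrast rests partly on the threshold, since T121 lay close to the called T112, at 0.67, and T116, at 0.68. The H4K20me1 calls of T111 and T112 held in 5 and 8 of 13 alternative fits. The difference between the runs was not tested. Leaving out a condition lowered the number of higher H4K20me1 calls to 3 without thymidine, colcemid or siKAT7 cells and to 2 without siControl cells.

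H3K36me2 was called higher in 4 members, T124, T125, T126 and T128, where 19.7% of the carried codes were. It was called lower in 1, T116, where 14.8% were. T128 took 2.45% to 3.36% of CenU H3K36me2 reads, with a log2 value of 1.55 (SE 0.23, edgeR adjusted p = 1.85e-06). T126 had 1.06 (SE 0.24, edgeR adjusted p = 0.000884). T116 took 0.419% to 1.55%, with −0.75 (SE 0.25, edgeR adjusted p = 0.0163). All 4 of these codes were also called higher in H3K9me3, where T128 had 1.01.

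The marks of open chromatin had fewer calls among the members, though H3K14ac values ran from −1.02 for T114 to 0.76 for T116. H4K8ac was called higher in 3 members, T112, T114 and T116, where 16.4% of the carried codes were, with T116 at 0.80 (SE 0.22, edgeR adjusted p = 0.00414). H3K4me2 was called higher in T112, at 1.00 (SE 0.24, edgeR adjusted p = 0.0014), where 1.64% of the carried codes were, and lower in T126, at −0.70 (SE 0.28, edgeR adjusted p = 0.0489), where 4.92% were. T112 was the only carried code called higher in H3K4me2 in this fit.
H3K14ac was called higher in T116, where 8.2% of the carried codes were, and lower in T114 and T124, where 6.56% were. T124 took 0.443% to 2.07% of H3K14ac reads and had −0.89 (SE 0.24, edgeR adjusted p = 0.00329). T114 took 0.0321% in released cells and 1.5% in untreated cells, and its call held in 6 of 13 alternative fits. Without the H3K14ac library of released cells this call was lost, and 3 members were called higher in H3K14ac in place of 1.

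The next comparison set T111 to T123 against T070 to T083, the first CENP-A domain, of which 13 of 14 codes were carried. It has no test, because codes of 1 library are not repeats and the first domain was likewise chosen by untreated CENP-A density. T111 to T123 took a smaller share of CenU CENP-A reads than T070 to T083 in all 7 conditions, from 33.8% beside 34.2% in colcemid cells to 24.4% beside 31.8% in thymidine cells. T070 to T083 took 30.9% to 34.9%, with a median of 33.5%, beside 24.4% to 33.8% for T111 to T123.
The median CENP-A level of T070 to T083 was 0.43 to 1.11 and that of T111 to T123 was 0.10 to 0.85. The difference, second minus first domain, was 0.07 in untreated cells and between −0.81 and −0.25 in the 6 treated conditions. The difference was largest in thymidine cells (−0.81) and in released cells (−0.77). Single codes of the 2 domains overlapped. In untreated cells T070 to T083 ran from 0.30 (T073) to 1.59 (T078) around a median of 0.77, and T111 to T123 from 0.09 (T120) to 1.51 (T115) around 0.85.

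H3K36me2 separated the domains in the same direction in all 7 conditions, with the level of T111 to T123 higher by 0.14 (released cells) to 0.85 (colcemid cells) and a median of 0.55. In reads, T111 to T123 took 12.1% to 21.3% of CenU H3K36me2 reads and T070 to T083 took 8% to 16.1%. H4K8ac was lower in T111 to T123 in all 7 conditions, with differences of −0.62 to −0.19. H4K20me1 was likewise lower in all 7, with −1.42 to −0.08. With the 9 codes of the runs alone, H4K8ac was lower in 6 conditions and H4K20me1 in 5, and CENP-A was lower in 4 and higher in 3.
H3K9me3 was higher in T111 to T123 in all 7 conditions, by 0.005 to 0.90, with a median of 0.44. This H3K9me3 difference depended on T117 to T120. With the runs alone, its median was −0.02 and it was positive in 3 conditions and negative in 4. With T001 added to the first domain it was positive in 4 and negative in 3. The H3K36me2 difference remained in all 7 conditions with only the runs, at a median of 0.50.

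The cell cycle comparison followed the domain from cells blocked with thymidine, at the start of DNA replication, through colcemid arrest in mitosis to 3 h after release. Changes are log2 ratios of the summed reads of a run, each divided by the NCU reads of its library. A change per NCU read is no absolute amount, since total recovery is not in the counts, so the change of all carried CenU codes together is given beside it. With 1 library a condition, rose and fell say how 2 libraries differ beyond or within their counting interval, and carry no test between conditions.

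CENP-A reads on the domain fell per NCU read in mitosis and rose after release, less steeply than those of all carried codes. T111 to T123 took 24.4% of CenU CENP-A reads in thymidine, 33.8% in colcemid and 32.1% in released cells. From thymidine to colcemid the change per NCU read was −0.61 (−0.65 to −0.57), beside −1.07 for all carried codes and −0.97 for T070 to T083. The domain thus gained 0.47 on the log2 scale against all carried CenU reads while it fell against NCU reads.
The 3 stretches moved by like amounts, −0.62 for T111 to T116, −0.60 for T117 to T120 and −0.61 for T121 to T123. T111 to T116 minus T117 to T120 was −0.02 (−0.09 to 0.05). From colcemid to release T111 to T123 rose by 0.35 (0.32 to 0.38), beside 0.42 for all carried codes. The rise was larger on T121 to T123 than on T117 to T120, by 0.29 (0.22 to 0.35). The end T125 to T128 changed by −0.43 and then by −0.23, but the latter rested on T125, since the median of its 3 code changes was 0.06.

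H4K20me1 had the largest change over all carried codes among the 7 antibodies, and the domain moved by a like amount into mitosis. T111 to T123 took 23.2% of CenU H4K20me1 reads in thymidine, 23.5% in colcemid and 29.6% in released cells. Per NCU read the change was −2.89 (−2.92 to −2.86) into mitosis, beside −2.91 for all carried codes, and 2.21 (2.18 to 2.23) after release, beside 1.88.
Within the domain T121 to T123 fell furthest, with −3.48, and T117 to T120 least, with −2.57. T121 to T123 minus T117 to T120 was −0.91 (−1.01 to −0.81) into mitosis and 0.72 (0.63 to 0.81) after release. The end T125 to T128 took 0.965%, 3.47% and 1.01% of H4K20me1 reads in these 3 conditions. Its share was thus highest in mitosis. Its change per NCU read was −1.06 and then 0.09 (interval −0.003 to 0.18). T125 had 0.534%, 1.52% and 0.702% of reads and T126 had 0.312%, 1.84% and 0.232%, while T128 had 0.12%, 0.106% and 0.073%.

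H3K9me3 of the domain fell into mitosis and fell again after release, per NCU read. The changes of T111 to T123 were −1.31 (−1.35 to −1.27) and −0.55 (−0.60 to −0.50), beside −1.02 and −0.80 for all carried codes. The runs changed more than the codes between them into mitosis, T111 to T116 by −1.47, T121 to T123 by −1.71 and T117 to T120 by −1.14. From colcemid to release they fell less, with −0.32, −0.33 and −0.71. The difference of T111 to T116 from T117 to T120 was −0.34 (−0.44 to −0.24) and then 0.39 (0.28 to 0.50).
H3K9me3 on T070 to T083 changed by −1.01 and then by −0.65. The difference between the domains was −0.30 (−0.36 to −0.23) into mitosis. The end T125 to T128 took 8.28% to 9.39% of CenU H3K9me3 reads over all 7 conditions.
H3K36me2 of T111 to T123 changed by −1.41 (−1.45 to −1.38) into mitosis and by 0.44 (0.41 to 0.47) after release, beside −0.93 and 0.39 for all carried codes.

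H3K14ac parted T121 to T123 from T111 to T116. T121 to T123 changed by −3.33 (−3.48 to −3.18) per NCU read into mitosis and by 2.98 (2.83 to 3.13) after release, while T111 to T116 changed by −1.31 and 1.06. T124 beside it changed by −3.58 and 2.39. The value of T121 to T123 rested in large part on T121, which had 1517 reads in thymidine and 6 in colcemid cells, a change of −8.29, while T122 changed by −2.23 and T123 by −2.41. After release T121 changed by 6.78, T122 by 1.69 and T123 by 3.40. T121 took 0.0207% of H3K14ac reads in colcemid cells and 2.49% in thymidine cells. Both libraries after thymidine were among the 3 that scattered most between codes, with SDs of 2.73 for released and 1.62 for colcemid cells, and the part of this scatter in the change was not tested.

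The siRNA comparisons asked how the domain differs in cells treated against KAT7 or HJURP. As a yardstick, untreated and siControl cells, both undepleted, differed on T111 to T123 by −0.67 in CENP-A and 0.71 (0.48 to 0.95) in H3K9me3 per NCU read. Changes of this size occur without depletion.

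H3K9me3 was higher on the runs of the domain in both depletions. T111 to T116 took 2.91% of CenU H3K9me3 reads in siControl, 4.51% in siKAT7 and 5.41% in siHJURP cells. T121 to T123 took 1.34%, 2.32% and 2.38%. The codes between them, T117 to T120, took 7.83%, 8.18% and 8.24%, and T125 to T128 took 8.89%, 8.91% and 8.83%. The share of the CENP-A rich runs was thus higher in both depletions, while that of the other stretches differed by less than 0.5 of a percentage point.
Per NCU read, T111 to T116 rose by 0.84 (0.75 to 0.93) in siKAT7 and 1.25 (1.16 to 1.34) in siHJURP cells. T117 to T120 rose by 0.27 and 0.43, and all carried codes together by 0.21 and 0.36. The difference of T111 to T116 from T117 to T120 needs no reference and was 0.57 (0.46 to 0.68) and 0.82 (0.71 to 0.93). Between untreated and siControl cells this difference was −0.36 (−0.91 to 0.19), with only 40 reads on T111 to T116 in the untreated library.

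By single codes, H3K9me3 rose by more than 1 on the log2 scale per NCU read in 6 of the 17 members in siKAT7 cells, where 14.8% of the carried codes did, and in 7 members in siHJURP cells, where 26.2% did. Of the 13 carried codes of T070 to T083, 3 did in siKAT7 and 8 in siHJURP cells. T114 had 122 reads in siControl, 241 in siKAT7 and 319 in siHJURP cells, changes of 1.37 and 2.22. T111 had 160, 374 and 367 reads, changes of 1.62 and 2.03. T113 had 1017, 995 and 833 reads, changes of 0.36 and 0.55.
In siHJURP cells the 6 members that rose most were the 6 with the fewest H3K9me3 reads in siControl cells, a library that stands in both values. Of the 7 conditions, siControl had the lowest H3K9me3 level on T111 to T116, −2.41, beside −1.81 in untreated, −1.60 in siKAT7 and −1.003 in siHJURP cells. The siKAT7 value thus lay closer to the untreated than to the siControl value.
T070 to T083 rose by 0.54 and 0.79 in H3K9me3. The domains did not part in this change, with a difference of −0.02 (−0.09 to 0.06) in siKAT7 and −0.03 (−0.10 to 0.04) in siHJURP cells.

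H3K36me2 rose on the same runs. T111 to T116 took 4.33% of CenU H3K36me2 reads in siControl, 7.5% in siKAT7 and 8.07% in siHJURP cells, and T121 to T123 took 2.53%, 4.13% and 4.39%. Per NCU read T111 to T116 rose by 1.16 (1.10 to 1.22) and 1.07 (1.03 to 1.11). T125 to T128 changed by 0.19 and −0.02. Between untreated and siControl cells T111 to T116 changed by −0.16 (−0.42 to 0.11).
In each depletion 6 members passed a log2 rise of 1, T111, T112, T114, T115, T116 and T121, where 24.6% of the carried codes did in siKAT7 and 21.3% in siHJURP cells. Of the 13 carried codes of T070 to T083, 9 did in siKAT7 and 6 in siHJURP cells. Among the members T112 rose most, by 2.16 and 2.20. T070 to T083 rose by 1.06 in both, slightly more than T111 to T123 with 0.96 and 0.85. The difference between the domains was −0.10 (−0.16 to −0.05) and −0.21 (−0.25 to −0.18).

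CENP-A reads gave a direction that depended on the reference. By ChIP-qPCR, which measures recovery, the paper reports lower CENP-A assembly after either depletion. It also found significant CENP-A recovery of CenU DNA but not of NCU DNA, the reference of the values per NCU read. T111 to T123 took 32.3% of CenU CENP-A reads in siControl, 26.1% in siKAT7 and 25.9% in siHJURP cells. Per NCU read the domain rose by 0.24 (0.10 to 0.39) and 0.16 (0.11 to 0.20), and per carried CenU read it changed by −0.30 and −0.32. Against T070 to T083 in the same libraries it lost, with a difference of −0.29 (−0.42 to −0.17) in siKAT7 and −0.20 (−0.24 to −0.16) in siHJURP cells, where the 2 undepleted cultures gave −0.003 (−0.05 to 0.04).
T121 to T123 took 6.32% of CenU CENP-A reads in siControl cells and 4.37% and 4.38% in the depleted cells. In siHJURP cells this run changed by −0.31 (−0.40 to −0.23) against T117 to T120, while untreated and siControl cells differed by −0.43 there. The siKAT7 library held 173 reads on this run.

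H4K20me1 of T111 to T123 changed by −0.19 (−0.21 to −0.17) in siKAT7 and −1.05 (−1.08 to −1.03) in siHJURP cells per NCU read, beside 0.03 and −0.77 for all carried codes. T121 to T123 changed by −0.40 and −1.20, T111 to T116 by −0.17 and −1.09. The untreated and siControl cells differed by 0.46 on the domain.
H4K8ac fell further on T121 to T123 than on the other stretches of T111 to T123, with −1.18 (−1.27 to −1.10) in siKAT7 and −1.35 (−1.43 to −1.28) in siHJURP cells, where T111 to T116 changed by −0.43 and −0.58. H3K14ac of T111 to T116 changed by −0.84 and −1.09, and H3K4me2 of T121 to T123 by −0.33 and −1.01. On the end T125 to T128 H3K4me2 changed by 0.35 and 0.16, the opposite sign. Of the 7 conditions, siControl had the highest H4K8ac level on T121 to T123, 0.93 beside 0.51 in untreated cells. It also had the highest H3K14ac level on T111 to T116, 0.91 beside 0.15. The H4K8ac change of T121 to T123 minus T117 to T120 was −0.63 in siKAT7 and −0.54 in siHJURP cells. Between untreated and siControl cells it was −0.09 (−0.19 to 0.005). With 1 library per condition none of these changes has a test.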

How the data were processed

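Position codes in ChIP DNA of HT1080 cells with HAC 1-20 were amplified by competitive PCR. The authors trimmed the reads with cutadapt 4.0, aligned them with Bowtie to the known codes, and deposited raw read counts per code made with SAMtools. Codes T were read as CenU and codes L as NCU, from their numbers. Unmatched reads, 5.98% to 10.4% of a library, were left out.

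Groups came from the sample labels, 49 of 102 libraries. The members, runs and tests were chosen with earlier results of these data known. All carried members are named with values, failing codes with their share, and of T070 to T083 the highest, lowest and median. Shares were given exact binomial 95% intervals, and log2 ratios of summed reads intervals from 1/count.

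edgeR 4.0.16 (glmQLFit, glmQLFTest, R 4.3.3) was fitted to 61 codes in 42 treated libraries, and DESeq2 1.42.0 was an alternative. In 1 simulated CENP-A comparison over 61 codes, 5 of 5 codes changed by 2 and 5 of 5 by −2 on the log2 scale were called, 4 of 5 by −1, 1 of 5 by 1, and 1 of 41 unchanged codes. The remaining values used Python 3.11, numpy 2.4.6 and scipy 1.17.1. Alternatives were the normalisation, filters, conditions and shallow libraries left out, the pseudocount, the reference of a change and the codes of a domain. The fit without the H3K14ac library of released cells was chosen after seeing the data.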

Additional observations from a re-analysis of the deposited data

Results flagged for a closer look

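1 CENP-A library outside the comparisons above held reads on these codes. In HAC 1-8, another HAC line, T111 to T128 took 22.6% (exact binomial interval 21.6 to 23.6) of 6759 CenU reads of the untreated CENP-A library, beside 36.2% in HAC 1-20. The single codes of HAC 1-8 ran from 0.0592% for T127 to 2.68% for T112. T128 took 0.207% and T127 had 4 reads, so both codes were the lowest of the range in that line too. T125 and T126, at 0.962% and 0.725%, were not set against marks, because HAC 1-8 has no mark libraries in this series, so copy number and CENP-A cannot be told apart there. In HAC 4-2, HAC 4-65, HAC 3-6 and HAC 4-49 the 18 codes together took 0.0598% to 0.197% of CenU CENP-A reads, which gives the level where the codes are not carried. T119 in HAC 4-49 stood above the other codes there, at 0.0813%.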

How the results depend on the processing

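No paired analysis was possible because the labels carry no replicate numbers to pair libraries by, and the fit compared antibodies with the condition as a term. Of 45 calls of a member in an antibody, 26 held under all 13 alternative fits and none changed sign. A fit that leaves out a condition has fewer libraries. Some calls were also lost with the same 42 libraries, such as T113 in CENP-A with DESeq2. The cause of the losses was not tested. CENP-A calls of T112, T114 to T116, T125, T126 and T128 and H3K9me3 calls of T112, T115, T116, T121 to T123, T125, T126 and T128 were among those that held, and 1 of the call settings, without the H3K14ac library of released cells, was added after seeing the data.

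The number of members called higher in CENP-A (8) was 5 without colcemid and without siControl cells. For H4K20me1 higher (5) it was 3 without thymidine, colcemid or siKAT7 cells and 2 without siControl cells. For H3K36me2 higher (4) it was 2 without siControl and without siKAT7 cells. For H3K36me2 lower (1) it was 2 with DESeq2, without a filter, with a median share of at least 0.2%, with all 49 libraries and without released, siKAT7 or siHJURP cells, 3 without the H3K14ac library of released cells, and 0 without colcemid or siControl cells. For H4K8ac higher (3) it was 1 without thymidine, colcemid or siKAT7 cells, and for H4K8ac lower (0) it was 1 with DESeq2, all 49 libraries or without released cells. For H3K14ac higher (1) it was 2 with DESeq2, 3 without released cells or their H3K14ac library and 0 without colcemid or siControl cells, and for H3K14ac lower (2) it was 1 with all 49 libraries and without thymidine, colcemid, released, siControl or siKAT7 cells. For H3K4me2 higher (1) it was 2 without a filter, with all 49 libraries and without that H3K14ac library, and for H3K4me2 lower (1) it was 0 with the 0.2% minimum, without shallow libraries and without each condition but the released cells.

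With the carried CenU reads as the reference in place of NCU reads, the thymidine to colcemid changes of T111 to T123 were 0.47 in CENP-A and 0.0224 in H4K20me1, both with the opposite sign, −0.48 in H3K36me2 and −0.29 in H3K9me3. The CENP-A values of T111 to T116, T117 to T120, T121 to T123 and T125 to T128 were 0.46, 0.48, 0.47 and 0.65, the H4K20me1 values of T117 to T120 and T125 to T128 were 0.34 and 1.85, and H3K36me2 of T125 to T128 was 0.10. From colcemid to release T111 to T123 had −0.0747 in CENP-A and 0.25 in H3K9me3, both reversed, 0.32 in H4K20me1 and 0.0532 in H3K36me2. CENP-A of T111 to T116 and T117 to T120 was −0.16 and −0.10, H3K36me2 of T117 to T120 and T125 to T128 −0.13 and −0.0564, and H3K9me3 of the 4 stretches in order 0.48, 0.0898, 0.47 and 0.00406. From siControl to siKAT7 CENP-A of T111 to T123, T111 to T116 and T117 to T120 reversed to −0.30, −0.21 and −0.31, H4K20me1 was −0.22, H3K36me2 0.59 and H3K9me3 0.31, and T125 to T128 had −0.18 in H3K36me2 and −0.00237 in H3K9me3. From siControl to siHJURP CENP-A of the same stretches and of T125 to T128 reversed to −0.32, −0.31, −0.22 and −0.33, H4K20me1 was −0.28, H3K36me2 0.67 and H3K9me3 0.40, and H3K9me3 of T125 to T128 was −0.0216. From untreated to siControl cells H4K20me1 of T111 to T116 was −0.19. These values differ from those above only in the reference used, and what moved the references against each other was not tested.

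With the median of code changes in place of summed reads, T111 to T123 changed into mitosis by −2.83 in H4K20me1, −1.60 in H3K36me2 and −1.47 in H3K9me3, and after release by 2.15, 0.66 and −0.32. In siKAT7 cells H4K20me1 was −0.14 and H3K9me3 0.97, and in siHJURP cells H3K36me2 was 0.97 and H3K9me3 1.14. CENP-A of T125 to T128 after release reversed to 0.0557. The untreated CENP-A levels of T111 to T116, T121 to T123 and T125 to T128 were 0.51, 0.33 and −1.96 against the 4 euchromatic marks alone, the first pair 0.96 and 0.76 with a pseudocount of 5, and the last −1.79 from summed reads. With only the runs, the difference of T111 to T123 from T070 to T083 was −0.11 in H4K8ac and −0.0228 in H3K9me3, the latter reversed. H3K9me3 in untreated cells, at 1462 CenU reads, H3K36me2 in untreated cells, at 2977, and CENP-A in siKAT7 cells, at 3960, limit the precision of the values that rest on them.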
